A study of Arabidopsis thaliana with 12 samples.

Results

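The receptor-like proteins (RLPs) of Arabidopsis thaliana were followed through leaf messenger RNA of 4 genotypes. The members were 49 loci of the family, with the stomatal receptor gene TMM left out, of which 48 had a row among the 32833 genes of the deposited table. AT3G24954 was not analysed here. The genotypes were Columbia wild type (WT), crwn1;4, in which both CRWN1 and CRWN4 are knocked out, and this background with PNET2_A or PNET2_B mutated by CRISPR. The last genotypes, crwn1;4 pnet2_a and crwn1;4 pnet2_b, are called the pnet2_a and pnet2_b triple mutants and crwn1;4 the double mutant, so the triple mutants carry both CRWN knockouts too. CRWN proteins are part of the plant nuclear lamina and PNET2 proteins lie in the nuclear envelope. Plants were untreated, and the titles give an age of 3 weeks where the protocol gives 4 weeks. Each genotype had 3 libraries. Whether these stand for separate plants is not stated, so a p-value here covers only library spread, which may be technical. The labels give 1 pnet2_a and 1 pnet2_b genotype with no line or allele name, and the pnet2 mutations themselves were not checked here.

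RLPs sit in the plasma membrane with leucine-rich repeats outside the cell and a short tail inside. They have no kinase domain of their own, so immune RLPs work with the adaptor kinase SOBIR1 and recruit the co-receptor BAK1 after binding a ligand. Several detect peptides or proteins of bacteria, fungi and oomycetes at the leaf surface, while others, such as CLV2, act in development. Many lie side by side in the genome as tandem copies.

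The libraries carried green leaf transcripts, with 21000 to 33800 FPKM summed over 5 leaf markers. FPKM counts fragments relative to a gene's length and to all fragments mapped in that library, so levels of different genes can be set side by side per length. The WT level of CRWN1 was 12.4 ± 0.949 FPKM, against 1.87 ± 0.130, 1.67 ± 0.208 and 1.75 ± 0.265 in the double mutant and the triple mutants with pnet2_a and pnet2_b (mean ± SD, n = 3, as throughout). CRWN4 had 7.36 ± 0.967 FPKM and then 1.26 ± 0.0341, 1.56 ± 0.0794 and 1.51 ± 0.500. Composition moved with genotype. The summed leaf markers reached 31260 to 32890 FPKM for WT, 30560 to 33800 for the double mutant, 25310 to 26790 with pnet2_a and 21000 to 22280 with pnet2_b. The sum of 5 guard cell markers was 31.9 to 35.2, 25.6 to 28.7, 17.5 to 20.7 and 20.5 to 23.8 FPKM in the same order. The sum of 5 root markers was 42.6 to 59.3, 52.7 to 58.4, 57.9 to 65.2 and 71.3 to 82.4 FPKM, most of it PYK10, with LBD16 at 0 in every library and WOX5 at 0 outside the triple mutants, where it had 0.341 to 1.38 FPKM. Mean sums over 4 epidermis markers were 197, 212, 171 and 185 FPKM, over 4 vascular markers 77.3, 71.7, 51.4 and 64.4, and over 4 flower markers 3.87, 2.15, 0.269 and 1.55. The part of these shifts in the results below was not tested. In such bulk samples a change in the number of cells of a type and a change in RNA per cell cannot be told apart.

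RLP transcripts were higher in both triple mutants. WT had 112 ± 8.49 FPKM summed over the 48 members and the double mutant 138 ± 16.0, while the sum was 290.3 ± 3.39 with pnet2_a and 357 ± 29.7 with pnet2_b. The order of the members changed with it. In WT the highest means were 16.3 FPKM for RLP4, 14.3 for RLP54, 13.3 for SNC2 and 10.3 for RLP26. In the pnet2_b triple mutant they were 52.0 FPKM for RLP34, 36.3 for RLP23, 35.0 for RLP41 and 22.4 for RLP38, against 3.84, 0.813, 1.73 and 1.35 in WT. The WT leaders RLP4 and RLP26 had 17.1 ± 0.924 and 11.6 ± 1.54 FPKM there.

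**Figure D1:**
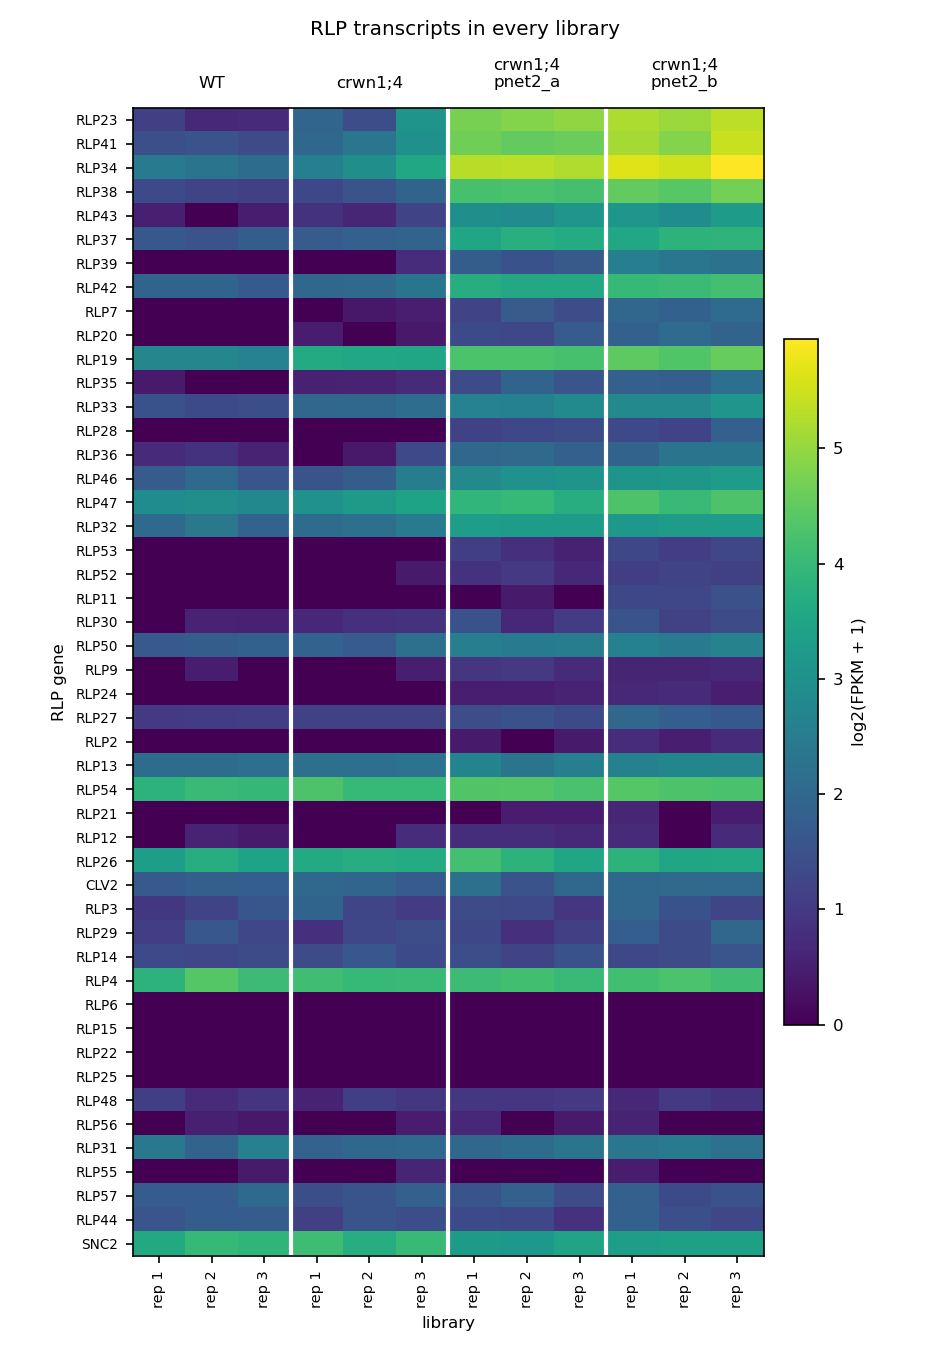
Level of each RLP gene (rows) in each of the 12 libraries (columns, grouped by genotype) as log2(FPKM + 1), with genes ordered by the difference between the triple mutants and WT. The upper rows brighten in the 6 triple mutant libraries, and SNC2 at the bottom is darker there than in WT.

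Of the 48 members, 37 passed the filter of at least 1 FPKM in at least 3 libraries. A gene is said to have risen or fallen where limma's adjusted p was below 0.05, and log2 changes are of FPKM + 1, which understates changes of low genes. Against the double mutant, 21 members rose and 1 fell in the pnet2_a triple mutant, where 22.9% of all 19110 genes tested rose and 9.20% fell. In the pnet2_b triple mutant, 24 rose and 1 fell, with 38.8% of all genes rising and 8.63% falling. The 21 that rose with pnet2_a were among the 24 that rose with pnet2_b. Both comparisons share the double mutant libraries. Of the 37, 12 reached 1 FPKM in fewer than 3 libraries of WT and the double mutant, so they were tested only because of their triple mutant libraries. These were RLP7, RLP11, RLP20, RLP28, RLP30, RLP35, RLP36, RLP39, RLP43, RLP48, RLP52 and RLP53, and their calls below draw on that filter. The other 25 would have been tested on WT and the double mutant alone. Among them 12 rose and 1 fell in the pnet2_a triple mutant, and 14 rose and 1 fell in the pnet2_b triple mutant. Of the 17904 genes that met the same condition, 21.7% and 38.0% rose. The median log2 change of the 25 members was 0.30 and 0.64, and that of the 17904 genes 0.10 and 0.21. With no filter every call of the 12 against the double mutant held. Of all genes called, 71.3% and 81.8% were rises; after median-ratio scaling these shares were 51.8% and 50.5%, and after quantile normalization 46.3% and 46.1%. The 37 members then counted 21 and 23 rises with the first scaling and 19 and 21 with the second.

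**Figure D2:**
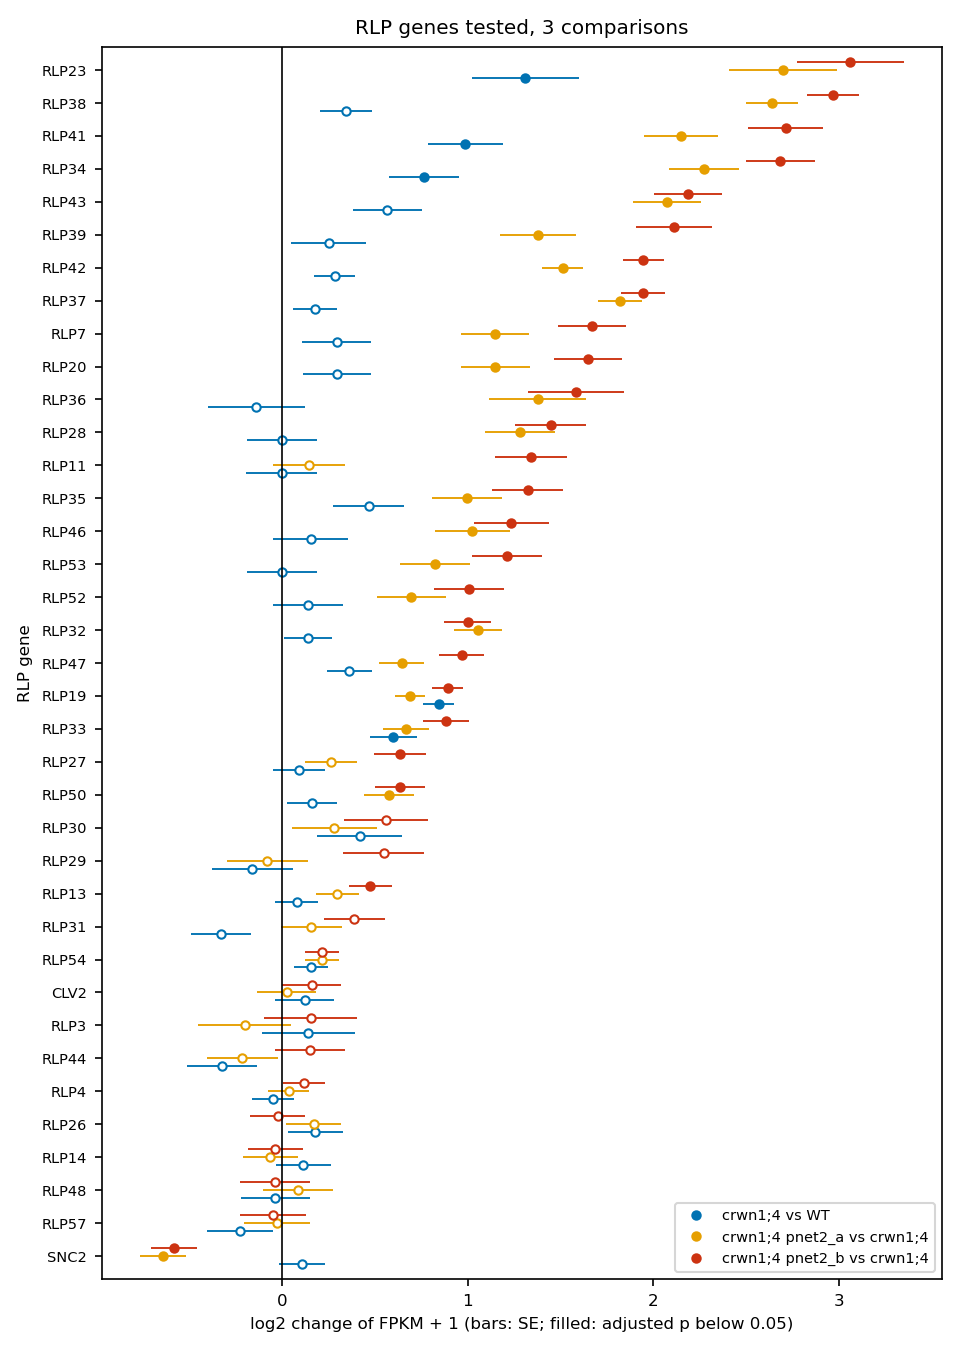
Log2 change of FPKM + 1 with its SE for the 37 RLP genes tested, in the double mutant against WT and in each triple mutant against the double mutant. Filled points passed an adjusted p of 0.05. The triple mutant points of RLP23, RLP38, RLP41 and RLP34 lie farthest right and those of SNC2 left of 0.

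Among the receptors with a known microbial ligand, RLP23 changed most. RLP23 (AT2G32680, chromosome 2, 13859769 to 13862614 in TAIR10.1) binds a peptide pattern of NLP toxins made by bacteria, fungi and oomycetes. It had 1.17, 0.616 and 0.649 FPKM in the WT libraries and 2.84, 1.71 and 7.51 in those of the double mutant. The triple mutants had 25.6, 27.8 and 30.4 FPKM with pnet2_a and 36.3, 32.2 and 40.3 with pnet2_b. The genotypes did not overlap, and replicate 3 of the double mutant stood above its other libraries. The log2 change against the double mutant was 2.70 (SE 0.289, adjusted p = 9.19e-06) with pnet2_a and 3.06 (adjusted p = 1.51e-06) with pnet2_b, and the triple mutant means were 34.4 and 44.6 times that of WT.

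RLP42 (AT3G25020, also RBPG1), the receptor for fungal endopolygalacturonases, had 2.79, 2.75 and 2.23 FPKM in WT, against 3.06, 3.10 and 4.00 in the double mutant. It had 12.1, 11.1 and 11.1 FPKM with pnet2_a and 15.0, 15.6 and 16.9 with pnet2_b. WT and the double mutant lay close together and both triple mutants above them, with log2 changes against the double mutant of 1.51 (SE 0.111, adjusted p = 3.95e-07) and 1.95 (adjusted p = 3.34e-08). Of the 50-base words in RLP42 exons, 31.6% also occur elsewhere in the genome, mostly in AT3G24929, AT3G24982 and RLP39, so its value may hold reads of those loci.

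RLP32 (AT3G05650), the receptor for bacterial translation initiation factor IF1, had 3.09, 4.16 and 2.75 FPKM in WT, against 3.28, 3.61 and 4.40 in the double mutant. It reached 9.12, 8.84 and 8.62 FPKM with pnet2_a and 7.97, 8.65 and 8.85 with pnet2_b. The triple mutants overlapped each other and lay above the other genotypes, with log2 changes against the double mutant of 1.06 (SE 0.128, adjusted p = 2.61e-05) and 1.00 (adjusted p = 2.58e-05). No 50-base word of RLP32 occurs elsewhere in the genome.

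RLP30 (AT3G05360), needed for the response to small cysteine-rich proteins of fungi, was low throughout. It was listed at 0, 0.488 and 0.465 FPKM in WT and had 0.616, 0.761 and 0.832 in the double mutant. It had 1.84, 0.604 and 1.05 FPKM with pnet2_a and 1.90, 1.22 and 1.60 with pnet2_b. The pnet2_a libraries overlapped those of the double mutant, and against the double mutant the adjusted p was 0.375 and 0.0564 (the second 0.0276 to 0.383 over the alternatives). It rose against WT with pnet2_b (log2 change 0.98, SE 0.228, adjusted p = 0.00278; 0.00169 to 0.0645) and with pnet2_a (0.70, adjusted p = 0.0270; 0.0108 to 0.229). Leaving out WT replicate 1 or pnet2_a replicate 1 or 3, or fitting the 2 genotypes alone, ended the pnet2_a call, and quantile normalization ended both. RLP30 reached 1 FPKM in triple mutant libraries only, so its test rests on the libraries in which it was high. The whole gene lies within AT3G05350 on the same strand, a gene with mean levels of 25.4, 26.5, 21.7 and 21.5 FPKM in the 4 genotypes, and its fragments may be counted in RLP30.

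The 300 bases before the annotated starts of RLP23, RLP28, RLP20 and RLP24 resembled one another, and these windows are shown because the genes were low or listed at 0 in WT and higher in the triple mutants. RLP28 and RLP24 lie in a group of neighbours on chromosome 2, and RLP23 and RLP20 elsewhere on that chromosome. SNC2, which fell, is given beside them. Capitals mark TTGACC or TTGACT on either strand, the W-box bound by WRKY transcription factors. The positions in TAIR10.1 are chr2:13862615-13862914 (minus strand) for RLP23, chr2:14031698-14031997 (plus) for RLP28, chr2:10826435-10826734 (plus) for RLP20, chr2:14016517-14016816 (minus) for RLP24 and chr4:10309592-10309891 (minus) for SNC2.
RLP23: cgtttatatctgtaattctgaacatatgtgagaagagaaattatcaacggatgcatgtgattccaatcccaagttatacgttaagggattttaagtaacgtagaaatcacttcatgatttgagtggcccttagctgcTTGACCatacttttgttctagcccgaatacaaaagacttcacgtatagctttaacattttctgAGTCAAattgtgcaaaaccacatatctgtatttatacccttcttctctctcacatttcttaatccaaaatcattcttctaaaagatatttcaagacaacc
RLP28: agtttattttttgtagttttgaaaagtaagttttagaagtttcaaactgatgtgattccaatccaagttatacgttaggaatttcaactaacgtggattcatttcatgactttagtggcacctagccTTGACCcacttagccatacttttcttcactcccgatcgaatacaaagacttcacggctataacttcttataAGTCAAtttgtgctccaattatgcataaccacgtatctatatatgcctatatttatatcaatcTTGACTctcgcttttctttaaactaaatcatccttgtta
RLP20: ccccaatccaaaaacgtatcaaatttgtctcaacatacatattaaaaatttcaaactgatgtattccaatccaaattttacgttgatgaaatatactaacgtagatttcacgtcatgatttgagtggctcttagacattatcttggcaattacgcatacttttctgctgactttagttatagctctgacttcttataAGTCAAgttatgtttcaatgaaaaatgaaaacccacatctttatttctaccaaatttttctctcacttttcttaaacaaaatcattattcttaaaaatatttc
RLP24: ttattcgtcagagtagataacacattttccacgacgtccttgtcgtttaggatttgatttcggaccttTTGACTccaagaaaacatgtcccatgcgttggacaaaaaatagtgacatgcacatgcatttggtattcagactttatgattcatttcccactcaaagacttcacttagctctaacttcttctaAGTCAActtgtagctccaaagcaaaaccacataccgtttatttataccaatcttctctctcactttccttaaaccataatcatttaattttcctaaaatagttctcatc
SNC2: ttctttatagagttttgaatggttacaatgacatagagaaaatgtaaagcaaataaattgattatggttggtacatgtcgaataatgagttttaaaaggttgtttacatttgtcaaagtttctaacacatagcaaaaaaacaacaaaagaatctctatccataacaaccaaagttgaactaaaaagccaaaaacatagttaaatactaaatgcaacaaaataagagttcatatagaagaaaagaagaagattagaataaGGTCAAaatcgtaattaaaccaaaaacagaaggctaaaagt
Global alignment gave 66.0% identity between RLP23 and RLP28 (221 of 335 columns), 62.5% between RLP20 and RLP23, 61.4% between RLP20 and RLP28, 60.8% between RLP20 and RLP24, 60.7% between RLP23 and RLP24 and 57.7% between RLP24 and RLP28. The median over all 1128 pairs of members was 51.3%, and 8 pairs exceeded 60%. The highest were the neighbours RLP39 and RLP41 at 74.8%, and RLP43 and RLP53, on different chromosomes, at 66.3%. A W-box was found in 13 of the 21 windows of members that rose in both triple mutants against the double mutant (61.9%). It was found in 7 of the 16 other members tested (43.8%) and in 8855 of 27443 windows of protein-coding genes (32.3%). Of the 21 risen members, 9 were tested because they were high in the triple mutants, so this split rests partly on that filter. Among the risen members RLP28 had 3 matches and RLP23, RLP50 and RLP52 had 2 each. RLP19, RLP32, RLP33, RLP39, RLP41, RLP42, RLP46 and RLP47, which also rose, had none in this window. RLP4 and RLP30, tested and outside the 21, also had 2 each, as did RLP15, RLP21 and RLP24, which were not tested. Thus 2 or more matches were found in 4 of the 21 (19%), 2 of the 16 (12.5%) and 7.91% of protein-coding genes. Some gene models, those of RLP20, RLP23 and RLP24 among them, are marked partial in the annotation, while those of RLP28 and SNC2 are not. The annotated start of a partial model may not be that of the full transcript. The part of this in the W-box shares was not tested.

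SNC2 (AT4G18760, also RLP51), an RLP whose gain-of-function allele activates immunity, fell in both triple mutants. It had 11.2, 14.9 and 13.9 FPKM in WT, then 16.1, 12.1 and 15.1 in the double mutant, 8.53, 8.002 and 10.1 with pnet2_a, and 9.10, 9.36 and 9.37 with pnet2_b. Every triple mutant library was below every library of WT and the double mutant, while WT overlapped the double mutant and the triple mutants overlapped each other. The log2 change against the double mutant was -0.64 (SE 0.123, adjusted p = 0.00121) with pnet2_a and -0.58 (adjusted p = 0.00163) with pnet2_b, and against WT -0.53 and -0.47 (adjusted p = 0.00370 and 0.00596). In the double mutant against WT it did not pass (adjusted p = 0.701). Its calls against the double mutant held in all 20 alternatives.

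RLP52 (AT5G25910), which contributes to powdery mildew resistance, was listed at 0 in the WT libraries and in double mutant replicates 1 and 2, with 0.345 FPKM in replicate 3. It had 0.821, 0.973 and 0.600 FPKM with pnet2_a and 1.14, 1.32 and 1.20 with pnet2_b. Every triple mutant library was above every double mutant library. RLP52 reached 1 FPKM in the 3 pnet2_b libraries only and was tested because it was high there. With that limit, the adjusted p against the double mutant was 0.0109 with pnet2_a and 0.000603 with pnet2_b. Quantile normalization ended the pnet2_a call (adjusted p = 0.0866; 0.00347 to 0.0866 over the alternatives).

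RLP3 (AT1G17250, also RFO2), a gene of resistance to Fusarium wilt, passed in none of the 6 comparisons. Its levels were 0.944, 1.35 and 2.03 FPKM in WT, then 2.76, 1.38 and 1.08 in the double mutant, 1.56, 1.50 and 0.919 with pnet2_a and 2.87, 1.81 and 1.36 with pnet2_b. All genotypes overlapped, and its spread was wide, with log2 changes against the double mutant of -0.20 and 0.16 (SE 0.250). The long noncoding RNA AT1G17255 lies on the other strand over the whole gene, and without the strand setting their reads cannot be told apart.

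Of the members known from development, CLV2 passed in no comparison and RLP44 in 1. CLV2 (AT1G65380, also RLP10), which acts with the pseudokinase CRN in meristem size control, had 2.23, 2.51 and 2.42 FPKM in WT, then 2.95, 2.82 and 2.31 in the double mutant, 3.59, 1.88 and 3.01 with pnet2_a and 3.05, 3.19 and 3.12 with pnet2_b. Its log2 changes against the double mutant were 0.03 and 0.16 (SE 0.158, adjusted p = 0.912 and 0.423). RLP44 (AT3G49750), which links cell wall state to brassinosteroid signalling through BRI1 and BAK1, had 1.97, 2.39 and 2.33 FPKM in WT, against 1.18, 1.94 and 1.68 in the double mutant. It had 1.51, 1.45 and 0.791 FPKM with pnet2_a and 2.58, 1.72 and 1.42 with pnet2_b. The pnet2_a libraries lay below WT, and RLP44 fell against WT (log2 change -0.54, SE 0.190, adjusted p = 0.0409). That call ended without any 1 WT library or without pnet2_a replicate 2 or 3 (adjusted p 0.0104 to 0.171 over the alternatives).

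**Figure D3:**
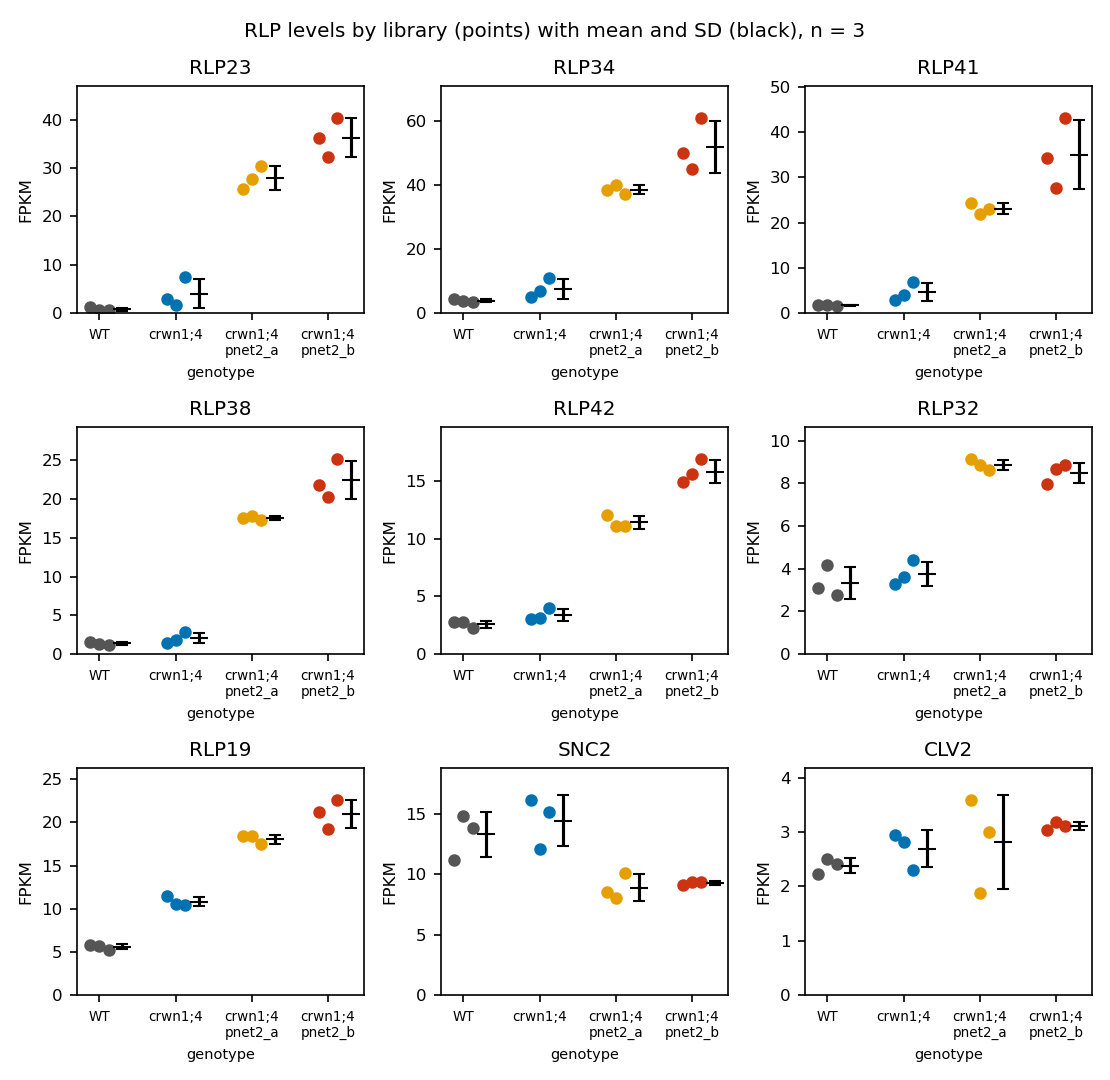
FPKM of 9 RLP genes in every library (coloured points) with the mean and SD of each genotype in black (n = 3), each panel on its own scale from 0. RLP23, RLP34, RLP41, RLP38, RLP42 and RLP32 are high in the triple mutants, RLP19 is higher in the double mutant too, SNC2 is lower in the triple mutants, and CLV2 overlaps across genotypes.

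The largest changes outside the members with known ligands were in RLP38, RLP34, RLP41, RLP43, RLP37 and RLP39. RLP38 had 1.52, 1.34 and 1.20 FPKM in WT, then 1.45, 1.87 and 2.78 in the double mutant, 17.5, 17.8 and 17.3 with pnet2_a, and 21.9, 20.3 and 25.1 with pnet2_b. The triple mutants stood far above the libraries of WT and the double mutant, which overlapped, with log2 changes against the double mutant of 2.64 (SE 0.140, adjusted p = 6.34e-08) and 2.97 (adjusted p = 1.47e-08). Its neighbour RLP37 had WT and double mutant means of 2.12 ± 0.269 and 2.53 ± 0.214 FPKM, and means of 11.5 ± 1.08 with pnet2_a and 12.6 ± 1.54 with pnet2_b. RLP37 lies within AT3G23100 on the other strand, whose mean was 7.28 to 9.72 FPKM over the genotypes.

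RLP34, the member with the highest level in the triple mutants, had 4.36, 3.86 and 3.29 FPKM in WT, against 4.96, 6.75 and 10.9 in the double mutant. It had 38.4, 40.0 and 37.1 FPKM with pnet2_a and 49.9, 45.1 and 60.8 with pnet2_b. The 4 genotypes did not overlap, and the log2 changes against the double mutant were 2.27 (SE 0.188, adjusted p = 1.02e-06) and 2.68 (adjusted p = 1.23e-07). RLP41 had 1.74, 1.87 and 1.59 FPKM in WT, then 2.95, 4.09 and 6.90 in the double mutant, 24.3, 21.8 and 23.0 with pnet2_a and 34.3, 27.7 and 43.0 with pnet2_b. It too had no overlap between genotypes, with log2 changes against the double mutant of 2.15 and 2.71 (SE 0.200, adjusted p = 2.83e-06 and 1.89e-07). RLP43 had means of 0.280 ± 0.244, 0.900 ± 0.396, 6.91 ± 0.739 and 7.58 FPKM for WT, the double mutant and the triple mutants with pnet2_a and pnet2_b. The 3 libraries behind the last mean ranged from 6.42 to 8.61 FPKM. RLP39 was listed at 0 in every WT library. In the double mutant it was above 0 in replicate 3 alone, at 0.690 FPKM, and it had 1.81 to 2.36 with pnet2_a and 3.66 to 4.82 with pnet2_b. RLP39 and RLP43 are among the 12 members tested because of their triple mutant libraries.

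Reads of near-identical copies limit some of these values. For 36 of the 48 members under 1% of the 50-base words of their exons occur elsewhere in the genome. For RLP34, RLP35, RLP39, RLP41, RLP42, RLP47, RLP48 and RLP53 the share was 12.9% to 31.6%. That share does not bound the uncertainty of a low member whose copy is abundant. With pnet2_a, RLP35 and RLP53 had means of 2.09 and 0.792 FPKM where RLP34 had 38.5, and RLP39 had 2.11 where RLP41 had 23.0. Reads of the abundant copy could make up all of the level and the rise of RLP35, RLP53 and RLP39, and their part was not tested. RLP34 shares words mainly with RLP35, RLP53 and RLP43, and RLP39 with RLP41, RLP42 and AT3G24929. RLP23 shared 0.393% of its words, RLP37 2.68% and RLP38 2.81%. An annotated gene overlaps 16 members. Transcripts on the other strand cover all of RLP3, RLP26, RLP46 and RLP50, and AT3G25012 overlaps 483 bases of RLP41, with means of 0.128, 0.813, 2.04 and 3.00 FPKM in the 4 genotypes. The libraries were strand-specific but the strand setting of the counting is not given, so reads of such pairs cannot be told apart.

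In the double mutant against WT 5 members rose and none fell, where 2.41% of all genes rose and 0.591% fell. At an unadjusted p below 0.05 none was lower, where 7.02% of all genes were. The members that rose were RLP19, RLP23, RLP33, RLP34 and RLP41, and all 5 rose again in both triple mutants. RLP19 (AT2G15080) had 5.78, 5.72 and 5.24 FPKM in WT, then 11.5, 10.6 and 10.4 in the double mutant, 18.4, 18.4 and 17.5 with pnet2_a and 21.2, 19.3 and 22.6 with pnet2_b. It was the member with the smallest adjusted p here, and its double mutant libraries were tightly grouped at 1.94 times the WT mean (log2 change 0.84, SE 0.0832, adjusted p = 9.08e-05; up to 0.0293 over the alternatives). RLP33 had 1.84, 1.52 and 1.70 FPKM in WT, against 2.89, 2.95 and 3.39 in the double mutant, and then 5.48 ± 0.518 with pnet2_a and 6.54 ± 0.971 with pnet2_b. Its log2 change in the double mutant was 0.60 (SE 0.124, adjusted p = 0.0177), and WT and the double mutant did not overlap. The triple mutants overlapped each other. RLP23, RLP41 and RLP34 had log2 changes of 1.31, 0.99 and 0.77 (adjusted p = 0.0243, 0.0155 and 0.0416). The RLP34 call was lost in 12 of the 20 alternatives (adjusted p 0.00503 to 0.256).

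Replicate 3 of the double mutant had the highest value of its genotype in 22 of 34 members with a value there. The same count was not made over all genes, so whether this was particular to RLPs was not tested. Without replicate 3 of the double mutant 3 members rose, the calls of RLP33 and RLP34 being lost. Without WT replicate 2 or 3, 3 members rose as well, and RLP23 and RLP34 were lost. In a fit of these 2 genotypes alone 1 member, RLP19, rose. Of all 19110 genes, 574 were called as reported and 305 without double mutant replicate 3. Without WT replicates 2 and 3 these numbered 691 and 381, and in the fit of 2 genotypes 29.

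Some members were listed at 0 outside the triple mutants. All those given here except RLP36 reached 1 FPKM in triple mutant libraries only, and RLP36 in 1 other library, so they were tested because they were high in the triple mutants and their calls carry that limit. Of the members tested, RLP28, RLP53 and RLP11 were at 0 in every library of WT and the double mutant, and RLP7, RLP20, RLP39 and RLP52 in every WT library. RLP28 had 1.25, 1.46 and 1.61 FPKM with pnet2_a and 1.50, 1.29 and 2.53 with pnet2_b, and passed in both triple mutants. RLP53 had 0.471 to 1.15 and 1.12 to 1.45 FPKM, RLP7 1.34 to 2.24 and 2.59 to 3.24, and RLP20 1.44 to 2.27 and 2.60 to 3.24, in the same order, and all 3 passed in both. RLP35 had 0 to 0.350 FPKM in WT libraries and 0.465 to 0.633 in the double mutant, against 1.57 to 2.70 and 2.51 to 3.48 in the triple mutants. RLP36 had 0.505 to 0.816 FPKM in WT and rose to 2.54 to 3.15 and 2.71 to 3.97, its double mutant libraries ranging from 0 to 1.50.

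Against WT, 24 members rose and 2 fell in the pnet2_a triple mutant (25.4% and 10.5% of all genes). With pnet2_b 26 rose and 1 fell (38.4% and 9.25%). These counts include members tested because of their triple mutant libraries. Of the other 25 members, 14 rose and 2 fell with pnet2_a, and 15 rose and 1 fell with pnet2_b. Of the 17904 genes that met the same condition, 24.2% and 37.5% rose, and 11.2% and 9.84% fell. The falls were SNC2 in both and RLP44 with pnet2_a. RLP46 and RLP47 also rose against both WT and the double mutant, to 6.82 ± 0.798 and 13.7 ± 1.45 FPKM with pnet2_a and 8.03 ± 0.655 and 17.4 ± 1.79 with pnet2_b, from 2.47 ± 0.555 and 6.30 ± 0.454 in WT. RLP50 went from 2.38 ± 0.198 FPKM in WT to 4.65 ± 0.180 and 4.89 ± 0.440. On the other strand, AT4G04221 covers RLP46, with means of 2.03, 2, 4.25 and 4.95 FPKM in the 4 genotypes. AT4G13918 covers RLP50 in the same way, with 1.93, 2.22, 3.98 and 4.97 FPKM. The part of their reads in the levels of RLP46 and RLP50 was not tested. RLP13 and RLP27 passed against the double mutant with pnet2_b and not with pnet2_a, and RLP54 passed against WT alone, at 18.8 FPKM in each triple mutant and 14.3 in WT.

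Between the triple mutants 1 of the 37 members passed (2.70%), close to the 2.12% of all genes that were higher with pnet2_b, and 0.754% were lower. This was RLP11, which passed the filter only through the 3 pnet2_b libraries. It was thus tested because it was high there, and its call carries that limit. RLP11 had 0, 0.356 and 0 FPKM with pnet2_a and 1.43, 1.41 and 1.77 with pnet2_b (log2 change 1.20, SE 0.192, adjusted p = 0.00581). The call ended with a pseudocount of 0.1 (adjusted p = 0.0985; 0.00184 to 0.0985 over the alternatives). Of the 25 members that met the filter on WT and the double mutant alone none passed by limma, and 8 were higher with pnet2_b at an unadjusted p below 0.05. Of the 17904 genes that met the same condition, 2.17% were higher by adjusted p and 3279 at that unadjusted p. The median log2 difference of the 25 members was 0.21, and that of the 17904 genes was 0.11. RLP23, RLP34 and RLP41 had log2 differences of 0.36, 0.41 and 0.56 (SE 0.289, 0.188 and 0.200), and their adjusted p were 0.480, 0.226 and 0.136. RLP42 came nearest to the threshold among the others (log2 difference 0.44, SE 0.111, adjusted p = 0.0514).

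Of the 37 members tested, 9 passed in none of the 6 comparisons: CLV2, RLP3, RLP4, RLP14, RLP26, RLP29, RLP31, RLP48 and RLP57. RLP4 was the steadiest of the higher ones, with genotype means of 15.6 to 17.1 FPKM and log2 changes against the double mutant of 0.04 and 0.12 (SE 0.112). RLP29 came nearest to the threshold against the double mutant, with a log2 change of 0.55 with pnet2_b (SE 0.218, adjusted p = 0.0511). A p above the threshold does not show equal levels. The 11 members below the filter were RLP2, RLP6, RLP9, RLP12, RLP15, RLP21, RLP22, RLP24, RLP25, RLP55 and RLP56. RLP6, RLP15, RLP22 and RLP25 were listed at 0 in all 12 libraries. RLP24 was above 0 in the 6 triple mutant libraries alone, at 0.418 to 0.643 FPKM. RLP2 was above 0 in 5 triple mutant libraries and RLP21 in 4, and in no other.

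Neighbouring members did not all change together. Of the 48 members, 31 lie in 12 groups in which the next member is within 50 kb. In the chromosome 3 groups of RLP32 and RLP33, of RLP34 and RLP35, of RLP36, RLP37 and RLP38, and of RLP39, RLP41 and RLP42, every member rose in both triple mutants against the double mutant. RLP35, RLP36 and RLP39 here, and RLP28 below, were tested because they were high in the triple mutants, and their calls carry that limit. Other groups were mixed. RLP23 reached 36.3 FPKM in the pnet2_b triple mutant while its neighbour RLP22 was listed at 0 throughout. In the group of RLP24 to RLP28 on chromosome 2, RLP28 rose in both triple mutants, RLP27 passed with pnet2_b, RLP26 had 10.3 to 13.6 FPKM in all genotypes without passing, and RLP25 was at 0. In the chromosome 4 group RLP47 and RLP50 rose, while RLP48 had 0.806 to 0.956 FPKM. RLP31, the neighbour of RLP30, passed in no comparison. These groups also hold most of the members with shared words, RLP34 and RLP35, and RLP39, RLP41 and RLP42, among them, and the part of shared reads in their likeness was not tested.

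**Figure D4:**
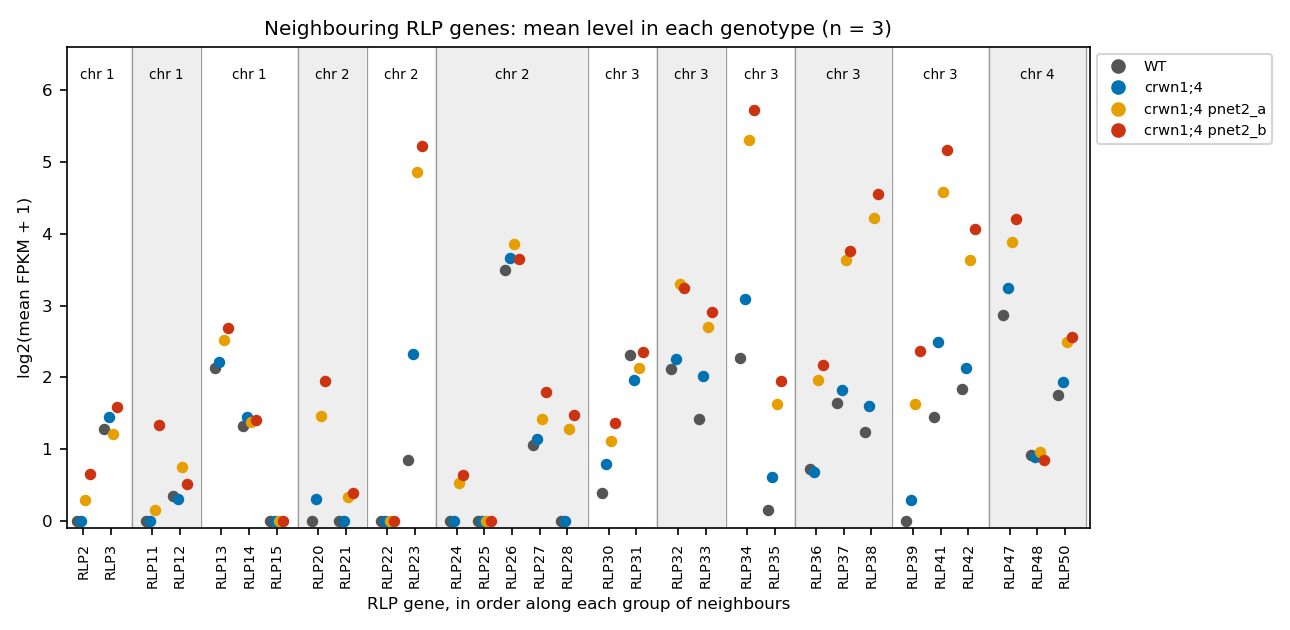
Mean level of 31 RLP genes as log2(mean FPKM + 1) in each genotype (coloured points, n = 3), in order along 12 groups of neighbours divided by vertical lines. All genes of the chromosome 3 groups from RLP32 to RLP42 have triple mutant points above those of WT and the double mutant, whereas RLP14, RLP26 and RLP48 have points close together.

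Most signalling partners of RLPs rose in the triple mutants as well. The list held 23 genes, all tested: the adaptor SOBIR1, co-receptors of the SERK family, BIR regulators, cytoplasmic kinases, the EDS1 helper module, RBOHD, and partners of CLV2 and RLP44. Against the double mutant, 17 of the 23 rose and none fell in each triple mutant, where 22.9% and 38.8% of all genes rose. The partners' median log2 changes were 0.63 and 0.77, where those of all genes were 0.11 and 0.23. The absence of falls depended on the scaling. With pnet2_a, 15 rose and 3 fell (BRI1, CLV1 and SERK2) after median-ratio scaling and after quantile normalization. With pnet2_b, 16 rose and 1 fell (BRI1) after the first, and 14 rose and 2 fell (BRI1 and SERK2) after the second. With pnet2_a, 1 partner also fell without double mutant replicate 1 (CLV1) or replicate 3 (SERK2). At an unadjusted p below 0.05, 2 (8.7%) were lower with pnet2_a and 0 with pnet2_b, where 12.3% and 10.2% of all genes were lower. The partners that did not pass the adjusted threshold were BIR3, BRI1, CLV1, CRN, SERK1 and SERK2, which include the CLV2 partners CRN and CLV1.

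SOBIR1, which holds immune RLPs in a complex and supplies the kinase they lack, changed most among the partners. It had 17.9, 21.1 and 15.6 FPKM in WT, then 33.9, 34.7 and 60.8 in the double mutant, 172, 171 and 180 with pnet2_a, and 216, 211 and 247 with pnet2_b. The 4 genotypes did not overlap, and replicate 3 of the double mutant was again the highest of its genotype. The log2 change was 1.16 in the double mutant against WT (SE 0.169, adjusted p = 0.00167), and 2.04 and 2.40 in the triple mutants against the double mutant (adjusted p = 1.03e-06 and 1.27e-07). The fit of WT and the double mutant alone ended the first call (adjusted p = 0.103; 0.000548 to 0.103 over the alternatives).

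The co-receptor BAK1 had means of 12.2, 12.9, 17.0 and 20.5 FPKM from WT through the double mutant to the triple mutants with pnet2_a and pnet2_b, and rose in both triple mutants against the double mutant. BIR1, a negative regulator that binds BAK1, went from 13.7 ± 2.18 FPKM in the double mutant to 39.5 ± 0.689 and 50.5 ± 6.43. In the helper module that acts after RLP activation, EDS1 had 10.2 ± 1.96 FPKM in the double mutant and 28.7 ± 2.06 and 39.4 ± 3.98 in the triple mutants. PAD4, which binds EDS1, had 11.1 ± 0.762 FPKM and then 28.1 ± 1.48 and 36.2 ± 5.54. The helper receptors ADR1 and ADR1-L1 went from 3.05 and 19.3 FPKM to 7.71 and 35.6 with pnet2_a and 8.76 and 43.3 with pnet2_b. PBL30, a cytoplasmic kinase of the RLP pathway, went from 6.74 ± 0.799 to 12.7 ± 0.417 and 16.1 ± 1.42 FPKM. All of these rose in both triple mutants, with adjusted p of 4.10e-05 or less from limma except for BAK1 with pnet2_a (0.00199).

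In the double mutant against WT, 2 of the 23 partners rose (8.7%), where 2.41% of all genes rose. These were SOBIR1 and SAG101, the third protein of the EDS1 family. SAG101 went from 4.97 ± 1.40 to 7.64 ± 0.598 FPKM. The SAG101 call (log2 change 0.56, adjusted p = 0.0395) was lost in 12 of the 20 alternatives, with adjusted p from 0.00244 to 0.241. Against WT, 17 partners rose and 1, SERK2, fell in the pnet2_a triple mutant (25.4% and 10.5% of all genes). In the pnet2_b triple mutant 19 rose and none fell (38.4% and 9.25%). None was lower there at an unadjusted p below 0.05, where 10.9% of all genes were. After median-ratio scaling and quantile normalization the counts with pnet2_b were 16 and 15 rises, and SERK2 fell in each. Between the triple mutants no partner passed by limma's adjusted p, and 9 of the 23 (39.1%) were higher with pnet2_b at an unadjusted p below 0.05, as were 18.1% of all genes.

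**Figure D5:**
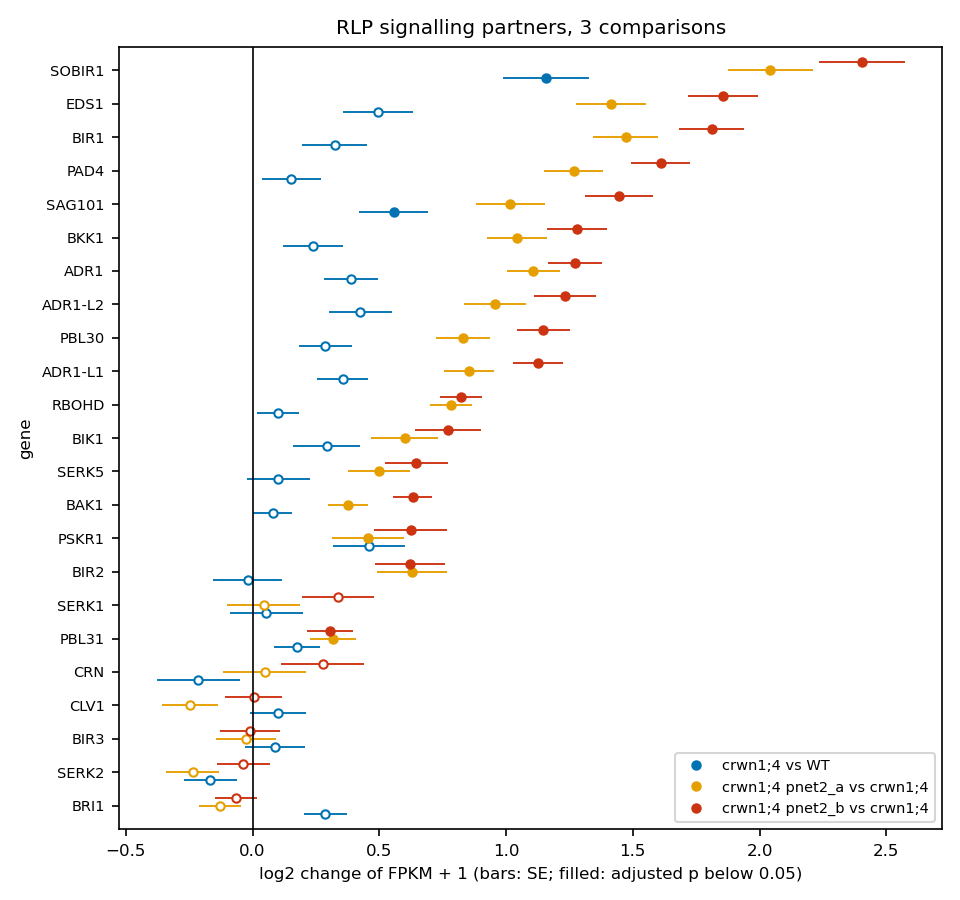
Log2 change of FPKM + 1 with its SE for 23 RLP signalling partners in the double mutant against WT and in each triple mutant against the double mutant. Filled points passed an adjusted p of 0.05. SOBIR1 lies farthest right in all 3 comparisons, and CRN, CLV1, BIR3, SERK1, SERK2 and BRI1 have open points.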

How the data were processed

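Leaf messenger RNA was measured in 12 libraries, 3 for each of 4 genotypes, grouped by the sample titles. The authors deposited FPKM values, 1 for each gene in each library. HISAT2 2.0.4 and the TAIR10 build are named in the submitters' processing notes. The counter, the annotation release and the strand setting used were not given in the labels. FPKM carries no read depth. Low values showed no fixed step worth 1 read (the fullest bin of library ratios held 2.05%), so depth is unknown and no count test was run. The smallest value above 0 ranged over libraries from 0.293 to 0.336 FPKM.

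A gene was tested if 3 or more libraries had 1 FPKM or more (19110 of 32833 genes). The test was limma 3.58.1 (R 4.3.3) with an intensity trend, in 1 fit of all 12 libraries on log2(FPKM + 1) with a genotype term alone. Benjamini-Hochberg adjustment ran over all genes tested within each of 6 comparisons, with a threshold of 0.05. The fit was tested on simulated data. Symbols, positions and the 300 bases before each gene start came from RefSeq's TAIR10.1 genome, read with Python 3.11.15, and figures were drawn with matplotlib 3.10.9.

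The members, lists and tests were chosen with earlier results of these data known. By rule, full values are given for members with a role known from the literature, for up to 8 members with the largest change in each of the first 3 comparisons and up to 4 in each other, for members that fell, and for the 8 partners with the smallest adjusted p. BAK1, RLP4, RLP29 and the members listed at 0 were added after their values were seen. Counts are also given for the members that met the filter in WT and double mutant libraries alone, a split made after the values were seen. Alternatives were pseudocounts of 0.1 and 5, no filter, a filter of 5 FPKM, median-ratio scaling, quantile normalization, a fit on the 2 genotypes compared, a replicate block, and each library left out.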

Additional observations from a re-analysis of the deposited data

Results flagged for a closer look

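RLP11 differed between the triple mutants. Its level was higher in the pnet2_b triple mutant than in the pnet2_a triple mutant by 1.20 on the log2(FPKM + 1) scale, a difference tested directly with limma (adjusted p = 0.00581). All 3 pnet2_b libraries, at 1.41 to 1.77 FPKM, were above the 3 pnet2_a libraries, of which 2 were listed at 0. The gene was listed at 0 in WT and the double mutant. It passed the filter on the pnet2_b libraries alone, so it was tested because it was high there, and its call carries that limit. It was 1 of 37 members tested (2.70%), where 2.12% of all genes were higher with pnet2_b.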

How the results depend on the processing

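None of 113 results for single genes reversed, and 100 kept their side of the threshold in every one of the 20 alternatives that tested them. In the double mutant against WT the count of members was 1 instead of 5 with a pseudocount of 5. It was 1 in a fit on the 2 genotypes compared, and 3 to 5 with a library left out. All genes called numbered 574 as reported, 386 with a pseudocount of 5 and 29 in that fit. The partners, 2 as reported, numbered 1 with a pseudocount of 5, 1 with no filter, 5 with median-ratio scaling, 0 in the fit on 2 genotypes and 1 to 5 with a library left out. A filter of 5 FPKM tested 17 members and called 13 and 14 against the double mutant with pnet2_a and pnet2_b, and 15 and 15 against WT, since it tests fewer genes. Between the triple mutants the members, 1 as reported, numbered 0 with a pseudocount of 0.1 and 3 with a pseudocount of 5. They numbered 5 in the fit on 2 genotypes and 1 to 3 with a library left out. All genes called there numbered 550 as reported, 465 and 763 with these pseudocounts and 908 in the fit. The partners, 0 as reported, numbered 2, 3 (pseudocount 5 and the fit on 2 genotypes) and 0 to 1. Where no construction explains a change, the cause was not tested. With a library left out, members called against the double mutant numbered 22 to 23 with pnet2_a and 25 to 27 with pnet2_b, and against WT 23 to 26 and 27. Partners numbered 15 to 18 and 16 to 17 against the double mutant, and 18 to 19 and 17 to 19 against WT.

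Shared replicate numbers showed no pairing of the libraries. After each gene's genotype mean was subtracted, same-numbered libraries of different genotypes had correlations of -0.084 to 0.068 over 18 pairs. With the replicate block the members called were 6 in the double mutant against WT, RLP43 being added, and 22, 25, 26, 27 and 1 in the other comparisons. Of all genes called, the share of rises between the triple mutants was 73.8% as reported, 25.5% with median-ratio scaling and 42.6% with quantile normalization, and RLP11 was the 1 member called in each. Against WT it was 70.7% and 80.6% as reported, 53.7% and 51.9%, and 45.4% and 44.6%. Median-ratio scaling ended calls of RLP13 and RLP54. Quantile normalization ended calls of these and of RLP27, RLP30, RLP50, RLP52 and RLP53, and added a fall of RLP57 with pnet2_b against WT. With depth unknown, no floor can be given for members listed at 0.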
